A study of Mus musculus with 16 samples.

Results

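The regions described here are 1231 distal and intergenic peaks of wild-type KLF1 at which the mutant Nan-KLF1 has no peak. They are 23.1% of the 5326 peaks that the authors called for KLF1 and 29.9% of the 4111 KLF1 peaks with no Nan-KLF1 peak. The members were chosen by measured values: a peak had to be called in the KLF1 library, to carry the authors' location Distal (1042 peaks) or Intergenic (189 peaks), and to overlap none of the 2758 Nan-KLF1 peaks by 1 bp or more. Their presence in one list and absence from the other is therefore the definition of the set and not a result.

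KLF1 is a zinc finger transcription factor of red cell precursors, and it binds CACCC boxes, short C-rich elements in the promoters and enhancers of globin, membrane, heme and cell cycle genes. Enhancers usually lie away from the gene they act on, in upstream or intergenic DNA, and the beta-globin locus control region is the classical erythroid case. Nan is a semidominant mouse allele of Klf1 that changes an amino acid in the second zinc finger, one of the parts of the protein that read DNA. Nan/+ mice are anaemic.

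The cells were K1, a line of erythroblasts that lack KLF1, and 2 lines made from it: K1-ER, which carries KLF1 fused to a tamoxifen-responsive oestrogen receptor domain, and K1-NanER, which carries Nan-KLF1 in the same kind of fusion. All lines received 4-hydroxytamoxifen at 200 nM, and the ChIP cells were fixed after 3 h. Each factor has 1 ChIP library, which was made from 3 pooled replicates and set against an input library of the same cells, so no spread between replicates exists for any peak. New RNA was labelled with 4-thiouridine (4sU) at 500 uM for 1 h in each of the 3 lines, with 2 libraries per line; the K1-ER and K1-NanER libraries came from different clones, so a fold change between lines also contains differences between clones, which cannot be told apart from the factor. Fetal livers came from Nan/+ and wild-type (+/+) embryos at embryonic day 14.5, with 3 replicate libraries per genotype. Nothing in the labels tells whether each library came from a separate embryo. The expression tables hold 1 value per group, in FPKM (fragments scaled to transcript length and to the size of the library), and the depth of the libraries is unknown.

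In the authors' deposited table Klf1 itself is not listed. Esr1, the oestrogen receptor gene that supplies the fused domain, stood at 136 FPKM in K1-ER, 70.3 FPKM in K1-NanER and 2.41 FPKM in parental K1. Epor, the erythropoietin receptor gene, stood at 485 FPKM in K1-ER, 139 FPKM in K1-NanER and 129 FPKM in parental K1, so this erythroid marker was present in each line. The level of Esr1 was thus higher in K1-ER than in K1-NanER, and the part of this in any difference between the peak lists was not tested.

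The authors gave each peak 1 central motif of 8 bases or none, and 18 different motifs occur. The motifs most frequent in the KLF1-only distal and intergenic peaks are shown because their bases differ in frequency from the shared ones, where each also occurs. Every base is in capitals since the whole run is the motif. The strand on which each was read is not given in the sources used here.
Most frequent motif: CCACGCCC
Next in frequency: CCACACCC
After these: CCCCACCC
Then: CCCCGCCC
Next after that: CCACTCCC
Then, less frequent: CCCCTCCC
Less frequent again: CCCAGCCC
Least frequent shown, as a tie: CCCTGCCC
The other of that tie: CCCTTCCC

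A motif was present in 977 of the 1231 peaks, or 79.4% (95% Wilson interval 77.0 to 81.5%). Wilson intervals here and below cover counting error only, since peaks of 1 library are not replicates. The share was 81.4% in the 1042 distal and 68.3% in the 189 intergenic peaks. For comparison, 75.6% of the 275 KLF1 peaks of the same locations that overlapped a Nan-KLF1 peak (the shared distal and intergenic peaks), 74.9% of the 1093 KLF1-only promoter peaks and 78.9% of all KLF1 peaks had one. The presence of a motif thus hardly set these peaks apart from other KLF1 peaks. It was less frequent at the 603 distal and intergenic peaks found for Nan-KLF1 alone, where 45.8% had a motif.

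The letters of the motif did differ. Adenine was the third base in 60.8% of the KLF1-only distal and intergenic peaks with a motif (95% Wilson interval 57.7 to 63.8%), against 26.0% of the shared distal and intergenic peaks (20.5 to 32.3%). KLF1-only intronic peaks were close to them at 54.1%, while KLF1-only promoter peaks stood at 28.3% and all KLF1 peaks at 43.2%. The fifth base was adenine in 38.8% of the KLF1-only distal and intergenic peaks and in 16.3% of the shared ones. KLF1-only intronic peaks were again close at 34.9%, with KLF1-only promoter peaks at 21.7% and all KLF1 peaks at 28.5%. The fourth base was cytosine in 85.5% of the KLF1-only distal and intergenic peaks, in 66.8% of the shared peaks and in 84.6% of KLF1-only promoter peaks. At the Nan-only distal and intergenic peaks the fourth base was cytosine in 32.6%. Cytosine as the fourth base was thus about as frequent at KLF1-only promoter peaks, whereas adenine as the third base was frequent at distal, intergenic and intronic KLF1-only peaks and not at promoters.

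**Figure D1:**
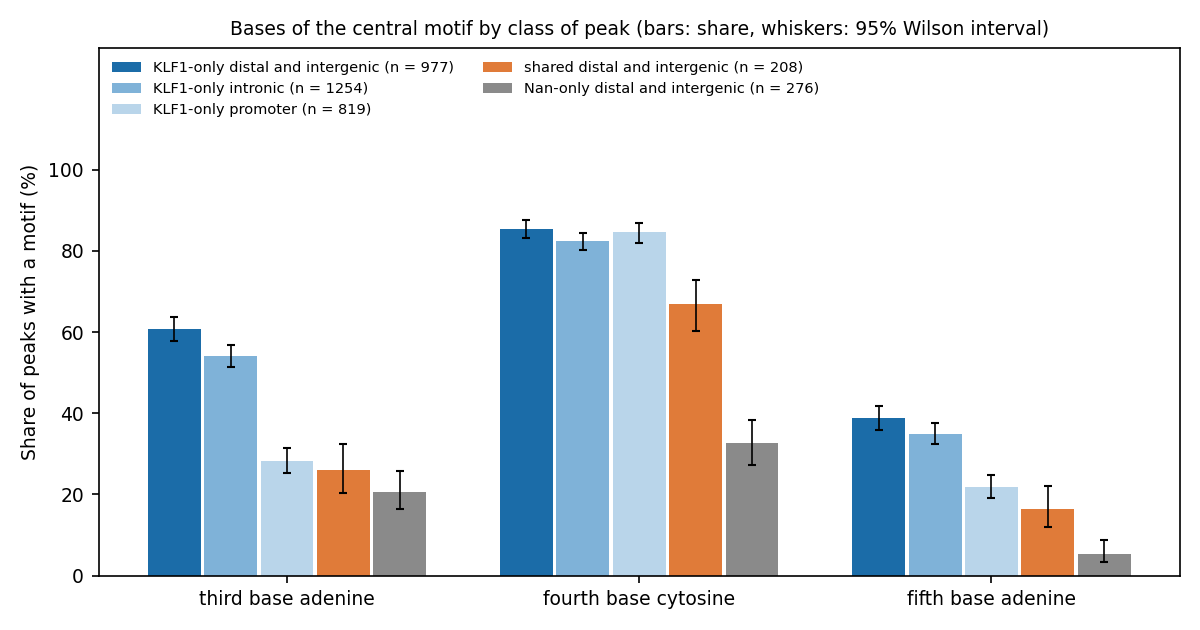
Share of peaks (y axis, percent of peaks with a motif) whose central motif has adenine at the third base, cytosine at the fourth or adenine at the fifth, in 5 classes of peak; whiskers are 95% Wilson intervals. KLF1-only distal and intergenic peaks reach 60.8% for the third base, against 26.0% of the shared ones.

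Single motifs gave the same picture. CCACGCCC was found in 269 peaks (27.5% of the 977) and CCACACCC in 229 (23.4%). Together these motifs made up 51.0% of the KLF1-only distal and intergenic peaks with a motif. CCACGCCC was also found in 15.9% of the shared distal and intergenic peaks, 26.6% of KLF1-only intronic peaks and 18.3% of KLF1-only promoter peaks. CCACACCC was found in 3.85% of the shared distal and intergenic peaks, in 4.88% of KLF1-only promoter peaks and in 2 of the 276 Nan-only peaks with a motif. In KLF1-only intronic peaks it was nearly as frequent as here, at 19.1%. The motif CCCCGCCC ran the other way, with 10.1% of the KLF1-only distal and intergenic peaks, 12.8% of KLF1-only intronic peaks, 24.0% of the shared ones and 34.6% of KLF1-only promoter peaks. CCCCACCC made up 13.5%, CCACTCCC 7.27%, CCCCTCCC 3.58%, CCCAGCCC 3.17%, and CCCTGCCC and CCCTTCCC 2.87% each. In the intergenic peaks alone CCACACCC led, with 40 of 129 motifs, ahead of CCACGCCC with 27.

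The third base was also compared within groups of fold enrichment. When all KLF1 peaks were split by fold enrichment into 4 groups of like size, adenine was the third base, from the weakest to the strongest group, in 64.0%, 62.3%, 63.8% and 45.8% of the KLF1-only distal and intergenic peaks with a motif. The shared distal and intergenic peaks gave 21.1%, 23.1%, 35.6% and 24.2% in the same groups, of 38, 26, 45 and 99 peaks with a motif. The share in the KLF1-only peaks was thus higher in all 4 groups and lowest among the strongest of them. The strongest group spans fold enrichments from 124 to 1151, so strength can still differ between the classes within a group. Its part in the difference was not tested.

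The KLF1-only distal and intergenic peaks were weaker and narrower than the shared ones. Their fold enrichment, the authors' ratio of ChIP over input for each peak, had a median of 65.4, with 46.9 and 98.1 as the 25th and 75th percentiles. The median was 115 in the shared distal and intergenic peaks, 69.1 in KLF1-only intronic peaks and 75.6 both in KLF1-only promoter peaks and in all KLF1 peaks. The median width was 586 bp in the KLF1-only distal and intergenic peaks, 788 bp in the shared ones and 673 bp in all KLF1 peaks. Of the first 100 peaks of the authors' ranking, 4 were KLF1-only distal or intergenic and 14 were shared distal or intergenic. Since a weak peak is more easily missed in a second library, the strength and the absence of a Nan-KLF1 peak cannot be told apart for the weaker members.

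**Figure D2:**
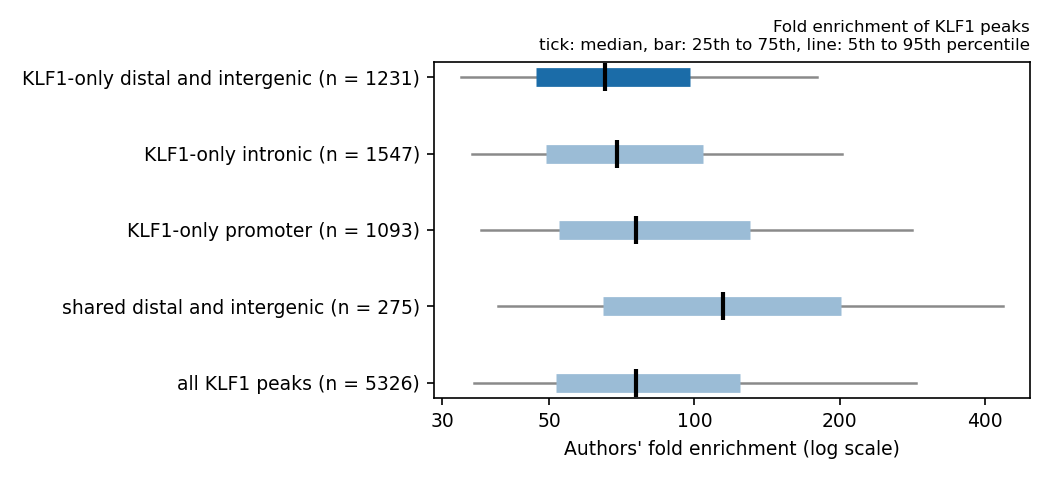
The authors' fold enrichment (x axis, log scale) in 5 classes of KLF1 peak; the tick is the median, the bar spans the 25th to 75th and the line the 5th to 95th percentile. The KLF1-only distal and intergenic peaks have a median of 65.4, and the shared ones of 115.

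The share of KLF1 peaks with no Nan-KLF1 peak was 77.2% over all locations. It was 81.7% among distal and intergenic peaks (95% Wilson interval 79.7 to 83.6%), 79.3% among intronic and 69.9% among promoter peaks. In the authors' remaining locations it ran from 73.2% (Downstream) to 84.2% (CDS). The overlap counted here is the one that defined the members. The members lay on all autosomes and on the X chromosome, most on chromosome 11 (101 peaks) and fewest on X (28 peaks), and 4 lay on unplaced sequence. Chromosome 11 held 8.20% of the members and 8.56% of all KLF1 peaks.

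The median distance from a member to the nearest Nan-KLF1 peak was 107 kb, and 599 members had one within 100 kb. No such distance is given for other positions, so these values do not show whether members lie unusually far from one. Only 3 members had a Nan-KLF1 peak within 200 bp, 18 within 1 kb and 83 within 5 kb. The closest included a peak assigned to Sgk3 at a gap of 55 bp, then Tmem259 at 124 bp, 1700024P04Rik at 177 bp and Lgals1 at 346 bp. Just outside the rule, the 5 peaks of the same locations with the smallest overlap shared 201 bp (Gtf3c5), 204 bp (Rabep1), 221 bp and 236 bp (both intergenic with no gene) and 244 bp (Mir148a) with a Nan-KLF1 peak. No distal or intergenic peak thus overlapped by less than 201 bp, and few members lay close to the border of the rule.

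The strongest member was a distal peak assigned to 1110001J03Rik, at chr6:38473537-38474541 in build mm9, with a fold enrichment of 597 and rank 38 of the list. An intergenic peak with no gene, at chr5:85411759-85412490, followed with 595 and rank 39. The next were assigned to C730036E19Rik (fold enrichment 491, rank 73), Dmrta2 (449, rank 91) and Psma3 (339.95, rank 179). Dmrta2 encodes a transcription factor of the developing brain and Psma3 a subunit of the proteasome. The remaining 5 of the 10 strongest were assigned to Nyap1 (fold enrichment 329), Elf2 (327), Tnnt2 (309), Lman1l (296) and Mir5106 (291). The peaks at Nyap1 and Elf2 had no central motif, and those at Dmrta2, Tnnt2 and Lman1l carried CCCCGCCC. Among these 10 peaks the closest Nan-KLF1 peak was 14893 bp away, at Mir5106.

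Members were mostly solitary. With neighbours at most 10 kb apart, 1004 stood alone, 180 formed 90 pairs and 47 (3.82%) formed 14 clusters of 3 or more. The largest cluster held 5 peaks over 28.3 kb of chromosome 1 (chr1:153029169-153057483), all assigned to C730036E19Rik, all with a motif, and with fold enrichments of 87.4, 171, 159, 209 and 491 in order of position. No KLF1 peak of another kind and no Nan-KLF1 peak was assigned to that gene, and the closest Nan-KLF1 peak was 186126 bp away. Clusters of 4 lay at Socs7 and Arhgap23 on chromosome 11, at Zfp217 on chromosome 2 and at Klf10 on chromosome 15. Socs7 encodes a suppressor of cytokine signalling and Zfp217 a zinc finger protein.

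A cluster of 3 lay beside the embryonic beta-globin gene Hbb-y, on the side where the mouse beta-globin locus control region lies. Its peaks were at chr7:111007362-111008005, chr7:111009220-111010010 and chr7:111019192-111019654, with fold enrichments of 248, 170.0 and 118. The authors assigned the first pair to Hbb-y and the third to Olfr66, an olfactory receptor gene. All 3 peaks carried CCCCACCC, the motif of 13.5% of the members that have one. The nearest Nan-KLF1 peak was 1293120 bp from the first of them, and no Nan-KLF1 peak was assigned to Hbb-y.

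In new RNA the authors' value for Hbb-y was 89.1 FPKM in K1-ER, 141 FPKM in K1-NanER and 20.8 FPKM in parental K1. The gene thus stood higher in both lines with a fusion protein than in K1, and highest in K1-NanER, where these peaks were not called. In the authors' deposited table the log2 fold change over K1 was 2.10 in K1-ER and 2.76 in K1-NanER, each with q = 0.00213. Hbb-bh1, a neighbouring embryonic globin gene with no such peak assigned, stood at 4174 FPKM in K1-ER, 418 FPKM in K1-NanER and 123 FPKM in parental K1. Hbb-y belongs to a family of similar genes, between which the authors' counting could divide reads.

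Klf10 encodes a zinc finger factor of the same family as KLF1 that is induced by TGF-beta. It had 5 members, 4 of them in a cluster at chr15:38242691-38262523 whose fold enrichments were 82.2, 93.0, 32.0 and 118 in order of position. The fifth, an intergenic peak at chr15:38303587-38304050, had 89.4. Klf10 also had a KLF1 promoter peak with a fold enrichment of 362, which overlapped a Nan-KLF1 promoter peak of 214. Klf10 stood at 399 FPKM in K1-ER, 347 FPKM in K1-NanER and 3.39 FPKM in parental K1. Both fusion lines were therefore far above K1 and differed little from each other, and the authors' deposited table gives log2 fold changes of 6.88 and 6.67 in K1-ER and K1-NanER, each with q = 0.00213.

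Pim1, a kinase gene induced by erythropoietin signalling, had 4 members 12.3 kb or more from its locus, with fold enrichments of 53.1, 45.2, 115 and 64.6. It also had a KLF1 promoter peak with a fold enrichment of 619 over a Nan-KLF1 peak of 87.7. Pim1 stood at 555 FPKM in K1-ER, 215 FPKM in K1-NanER and 166 FPKM in parental K1. Pim1 rose in K1-ER and was not called in K1-NanER, with log2 fold changes of 1.74 (q = 0.00213) and 0.37 (q = 0.609) in the authors' deposited table.

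**Figure D3:**
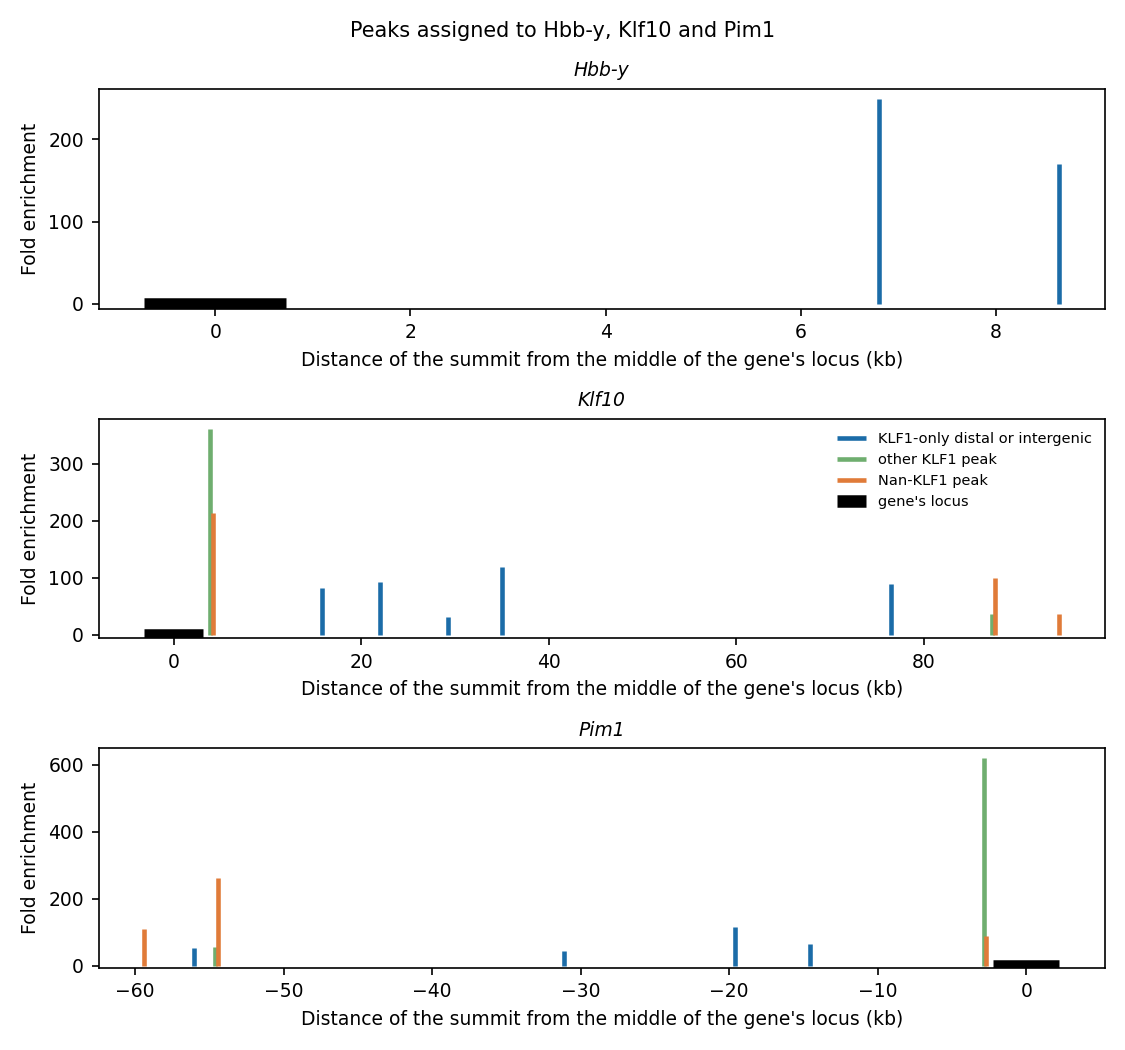
Fold enrichment (y axis) of the KLF1 and Nan-KLF1 peaks assigned to Hbb-y, Klf10 and Pim1 against the distance of each summit from the middle of the gene's locus (x axis, kb; Nan-KLF1 peaks are drawn 0.25 kb to the right so that shared peaks can be seen). Hbb-y has 2 KLF1-only distal peaks and no Nan-KLF1 peak, Klf10 has 5 KLF1-only distal or intergenic peaks and Pim1 has 4.

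The authors assigned the members to 941 genes, and 112 members, 99 of them intergenic, had no gene. Of these genes 807 had 1 member, 107 had 2, 18 had 3, 6 had 4 and 3 had 5, namely C730036E19Rik, Irf2bpl and Klf10. Genes with 4 were Arhgap23, Atp2b4, Klf13, Pim1, Slc28a3 and Zfp217. For 600 of the 941 genes (63.8%) the members were the only KLF1 peaks assigned, 168 (17.9%) also had a KLF1 promoter peak, and 219 (23.3%) had some Nan-KLF1 peak.

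Of the 941 genes 174 are in the 4sU table, which lists 1556 genes and holds only genes called in at least 1 of its comparisons. The median distance from a member's summit to the edge of such a gene's locus was 7.38 kb, the nearest was 1.01 kb, and 105 of the 174 genes had one within 10 kb. Of the 174, 107 rose in K1-ER at a q of at most 0.05 in the authors' deposited table, or 61.5% (95% Wilson interval 54.1 to 68.4%), where 37.9% of the whole table rose. In K1-ER 10 fell (5.75%), where 11.5% of the whole table fell. The median log2 fold change in K1-ER over K1 was 1.23 for the 174 genes and 0.72 for the whole table.

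In K1-NanER, where these peaks were not called, 91 of the 174 genes rose (52.3%), where 47.4% of the whole table rose, and 19 fell (10.9%), where 28.3% of the whole table fell. The median log2 fold change in K1-NanER over K1 was 1.10 for the 174 genes and 1.04 for the whole table. Side by side, 49 genes rose in both lines, 58 rose in K1-ER and were not called in K1-NanER, and 42 rose in K1-NanER and were not called in K1-ER. No gene moved in opposite directions with a call in both, 4 fell in both, 6 fell in K1-ER only, and in K1-NanER only 15 did. The comparisons share the K1 libraries, and K1-ER was not tested against K1-NanER in these tables, so a call in one line alone does not show that the lines differ.

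The share that rose in K1-ER differed with the other peaks of the gene. Of the 101 genes that had another KLF1 peak besides these, 77 rose in K1-ER (76.2%, 95% Wilson interval 67.1 to 83.5%). Of the 73 genes with no other KLF1 peak, 30 rose (41.1%, 30.5 to 52.6%), which is near the 37.9% of the whole table. Genes of the table with no KLF1 peak at all rose in 20.2% of cases, and genes with any KLF1 peak in 58.8%. With a KLF1 promoter peak 46 of 60 rose, and with no promoter peak 61 of 114. Genes with 2 or more members rose in 32 of 42 cases and genes with 1 in 75 of 132. Genes that rose in K1-ER had their closest member at a median distance of 5.71 kb, and the other genes at 8.79 kb.

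In K1-NanER the share that rose, 47.4% in the whole table, varied less between the groups made by other peaks or by number of members. It was 58.3% with a KLF1 promoter peak and 49.1% with none, and 57.1% with 2 or more members and 50.8% with 1. It was 51.5% for genes with another KLF1 peak and 53.4% for genes with none. It was 52.9% for the 70 genes with a Nan-KLF1 peak and 51.9% for the 104 without one. In K1-ER the corresponding shares were 74.3% with a Nan-KLF1 peak and 52.9% without. By distance of the closest summit, the share in K1-NanER varied more. It was 44.8% for the 105 genes within 10 kb, 62.3% for the 61 at 10 to 50 kb, and 6 of 8 farther away. In K1-ER it was 66.7%, 54.1% and 4 of 8 in the same order. Genes of the KLF1-only distal and intergenic peaks were also like those of other KLF1-only peaks in K1-ER, where 60.8% of the genes of KLF1-only intronic and 60.5% of those of KLF1-only promoter peaks rose. The genes of the shared distal and intergenic peaks rose in 44 of 54 cases.

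**Figure D4:**
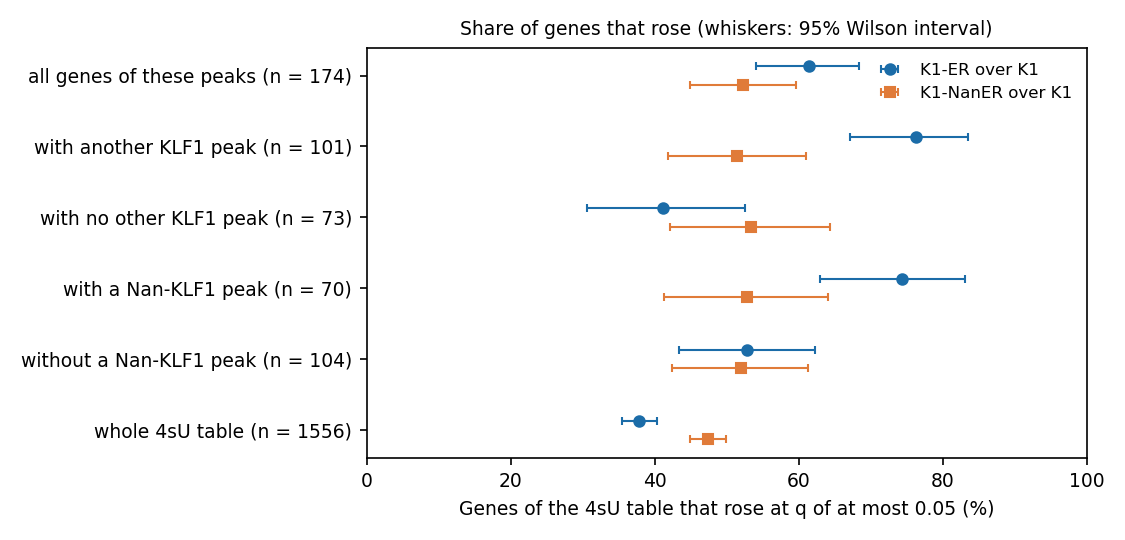
Share of genes assigned to KLF1-only distal and intergenic peaks that rose in K1-ER, and in K1-NanER, relative to K1 (x axis, percent of genes in the 4sU table), by the other peaks of the gene; whiskers are 95% Wilson intervals. In K1-ER the share is 76.2% with another KLF1 peak and 41.1% with none, while in K1-NanER it lies between 51.5% and 53.4% in the 5 groups of genes with such peaks.

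The largest rises in K1-ER, among genes with at least 1 FPKM, included several that the authors' deposited table lists at its floor of 0.1 FPKM in K1, so that no fold is given for them. Crip1, which encodes a small LIM-domain protein, stood at 18.4 FPKM in K1-ER, 2.37 FPKM in K1-NanER and at the floor in K1. Pklr, the gene of the red cell and liver pyruvate kinase and a known KLF1 target, stood at 3.74 FPKM in K1-ER, 0.13 FPKM in K1-NanER and at the floor in K1. Spn, the gene of the leukocyte surface protein CD43, stood at 4.95 FPKM in K1-ER, 0.216 FPKM in K1-NanER and at the floor in K1. All 3 rose in K1-ER (q = 0.00213 in the authors' deposited table) and were not called in K1-NanER. Crip1 also had a shared KLF1 intronic peak and Pklr a KLF1 promoter peak, while Spn had no other KLF1 peak. Myl7, which encodes an atrial myosin light chain, Tnfrsf13c, which encodes the BAFF receptor of B cells, Fbxo2 and Ift81 were also at the floor in K1. They reached 5.48, 3.42, 2.31 and 1.48 FPKM in K1-ER and stood at 0.1, 0.341, 0.131 and 0.987 FPKM in K1-NanER, the genes being in that order. Fbxo2 encodes a substrate receptor of a ubiquitin ligase and Ift81 a protein of ciliary transport.

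Other large rises in K1-ER started from measured levels in K1. Nyap1, an adaptor of phosphoinositide 3-kinase described in neurons, had 1 member with a fold enrichment of 329 lying 1.13 kb from its locus and no other peak. It stood at 22.0 FPKM in K1-ER, 0.375 FPKM in K1-NanER and 0.430 FPKM in parental K1, so that K1-NanER was at the level of K1. The log2 fold change in K1-ER was 5.68 (q = 0.0239 in the authors' deposited table). Arl4d, which encodes a small GTPase, had 1 member 1.11 kb from its locus and no other peak, and stood at 32.4 FPKM in K1-ER, 2.94 FPKM in K1-NanER and 2.17 FPKM in parental K1. Lrrc4b, which encodes a synaptic adhesion protein, stood at 12.5 FPKM in K1-ER, 0.411 FPKM in K1-NanER and 0.593 FPKM in parental K1. Besides its 2 members Lrrc4b had a KLF1 promoter peak and a KLF1 intronic peak. Arl4d and Lrrc4b rose in K1-ER by 3.90 and 4.40 on the log2 scale in the authors' deposited table and were not called in K1-NanER.

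Mxd3, whose product opposes MYC at its target sites, rose in both lines. It stood at 209 FPKM in K1-ER, 158 FPKM in K1-NanER and 4.73 FPKM in parental K1, and its log2 fold changes were 5.46 and 5.06 in K1-ER and K1-NanER in the authors' deposited table. Klf10 and Mxd3 were also the largest rises in K1-NanER. Next in K1-NanER was Azin1, which encodes an inhibitor of antizyme and thereby raises polyamine synthesis, with 25.6 FPKM in K1-ER, 124 FPKM in K1-NanER and 6.46 FPKM in parental K1. Btg2, an antiproliferative gene, stood at 337 FPKM in K1-ER, 488 FPKM in K1-NanER and 27.0 FPKM in parental K1. Azin1 rose by 1.99 in K1-ER and 4.27 in K1-NanER on the log2 scale, and Btg2 by 3.64 and 4.18 (authors' deposited table). Both genes had other KLF1 peaks besides their members, the strongest being shared distal peaks with fold enrichments of 361 (Azin1) and 125 (Btg2). Onecut3 and Ripk3, which were at the floor in K1, were the remaining large rises in K1-NanER, at 1.43 and 1.26 FPKM in that line; they stood at 1.11 and 0.930 FPKM in K1-ER, where neither was called (q of 1 in the authors' deposited table).

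Few genes fell. In K1-ER the largest falls were those of Prkx, a protein kinase gene listed at the floor in K1-ER with 0.563 FPKM in K1-NanER and 1.85 FPKM in parental K1, and of Terc, the telomerase RNA gene, with 19.6 FPKM in K1-ER, 6.78 FPKM in K1-NanER and 94.6 FPKM in parental K1. Terc fell by 2.27 on the log2 scale in K1-ER (q = 0.0322), while its value of -3.80 in K1-NanER missed the threshold (q = 0.0532, authors' deposited table). Spred2, an inhibitor of the Ras pathway, stood at 1.30 FPKM in K1-ER, 5.84 FPKM in K1-NanER and 6.05 FPKM in parental K1, and fell in K1-ER alone (q = 0.0487 in the authors' deposited table). Its member lay 73.0 kb from the locus. The other 3 large falls in K1-ER, Hist1h2bj (a histone H2B gene, one of many near-identical copies), Golph3 (a Golgi protein gene) and Lama5 (a laminin chain gene), were called in both lines. They stood at 175, 18.5 and 27.3 FPKM in K1-ER, at 257, 24.0 and 22.6 FPKM in K1-NanER and at 780, 60.9 and 83.9 FPKM in K1, in the same order. None of these 6 genes had any other KLF1 peak.

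The largest falls in K1-NanER were those of Lsm4, 2410004N09Rik, Lama5 and 2810008D09Rik. Lsm4, which encodes a part of the U6 RNA complex, stood at 32.6 FPKM in K1-ER, 11.0 FPKM in K1-NanER and 48.2 FPKM in parental K1, and fell by 2.14 on the log2 scale in K1-NanER (q = 0.00535) and was not called in K1-ER (q = 0.448, authors' deposited table). The RIKEN genes 2410004N09Rik and 2810008D09Rik stood at 49.1 and 128 FPKM in K1-ER, at 31.5 and 49.1 FPKM in K1-NanER and at 117 and 170 FPKM in K1.

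Genes were also looked up in 8 lists: globins, heme synthesis, iron, red cell membrane, transcription factors, erythropoietin receptor signalling, cell cycle, and apoptosis and maturation. The lists are not confined to erythroid genes and include, for example, the ubiquitous factor Sp1. Of their 193 genes, 29 had a member. Of these 29, 17 are in the 4sU table, where 13 rose and 1 fell in K1-ER and 9 rose and 0 fell in K1-NanER. Those that rose are 76.5% and 52.9% of the 17, where 37.9% and 47.4% of the whole table rose in these lines. List genes with no member were also often higher, with 37 of 57 (64.9%) up in K1-ER and 23 of 57 (40.4%) in K1-NanER. The median log2 fold change of the 17 genes was 1.66 in K1-ER and 1.13 in K1-NanER, against 1.79 and 1.12 in the list genes with no member and 0.72 and 1.04 in the whole table. The iron list had no member at any of its 17 genes, of which 6 had a KLF1 peak of another kind. The globin list had the Hbb-y peaks as its only members. Within the 4sU table, 17 of the 74 list genes had a member, as did 174 of all 1556 genes. No share with a member over all genes was computed, so the counts per list cannot be set against one.

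In the membrane list 6 of 39 genes had a member, and the 4 of them in the 4sU table all rose in K1-ER, where 37.9% of the whole table rose. With or without a member, 10 of the 12 genes of this list in the table rose in K1-ER. Slc4a1, the gene of the anion exchanger band 3, had 2 members with fold enrichments of 47.9 and 60.05, and stood at 6.79 FPKM in K1-ER, 1.43 FPKM in K1-NanER and 2.00 FPKM in parental K1. Aqp3, which encodes a water and glycerol channel, stood at 33.6 FPKM in K1-ER, 8.39 FPKM in K1-NanER and 14.5 FPKM in parental K1. Slc4a1 also had a shared KLF1 intronic peak with a fold enrichment of 56.9, and Aqp3 a KLF1-only promoter peak of 105. Slc2a1, the gene of the glucose transporter GLUT1, had 2 members with fold enrichments of 110.3 and 116. It had no other KLF1 peak, and 3 Nan-KLF1 peaks were assigned to it. Slc2a1 stood at 127 FPKM in K1-ER, 63.6 FPKM in K1-NanER and 57.8 FPKM in parental K1. In the authors' deposited table these 3 rose in K1-ER, with log2 fold changes of 1.76 (Slc4a1, q = 0.0158), 1.22 (Aqp3, q = 0.0294) and 1.13 (Slc2a1, q = 0.0231), and were not called in K1-NanER. Cd24a, which encodes a surface glycoprotein of young red cells, rose in both lines and stood at 195 FPKM in K1-ER, 261 FPKM in K1-NanER and 51.3 FPKM in parental K1. Epb4.1, the gene of membrane protein 4.1, and Cd47 had members with fold enrichments of 76.1 and 143 and are not in the 4sU table.

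In the transcription factor list 7 of 35 genes had a member. The strongest lay at Tal1 (chr4:114728712-114729836, fold enrichment 210.2, motif CCCCACCC) and Klf13 (216, motif CCACTCCC), and Gata1 had one at chrX:7548367-7548800 with a fold enrichment of 144 and the motif CCCATCCC. Gata1 and Tal1 encode core factors of red cell development. Neither they nor Ikzf1, whose member had a fold enrichment of 111, are in the 4sU table. Klf13 stood at 172 FPKM in K1-ER, 88.1 FPKM in K1-NanER and 55.1 FPKM in parental K1. It rose in K1-ER alone (log2 fold change 1.64, q = 0.00213, authors' deposited table). Besides its members Klf13 had a KLF1-only intronic peak with a fold enrichment of 235 and a KLF1-only promoter peak of 155. Klf11, another member of the KLF family, rose in both lines, with 53.3 FPKM in K1-ER, 46.8 FPKM in K1-NanER and 8.81 FPKM in parental K1. Sp1, which encodes a ubiquitous factor of GC boxes, rose in K1-NanER alone (q = 0.0168 in the authors' deposited table), with 28.5 FPKM in K1-ER, 37.5 FPKM in K1-NanER and 17.2 FPKM in parental K1.

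In the list of erythropoietin receptor signalling, Jak2, Socs3, Pim1, Sh2b3, Irs2 and Spred2 had members. Irs2, an adaptor of insulin receptor signalling, rose in both lines. It stood at 333 FPKM in K1-ER, 233 FPKM in K1-NanER and 37.2 FPKM in parental K1. Irs2 had a member with a fold enrichment of 48.8 and also a shared KLF1 intronic peak of 248. Sh2b3 (the inhibitory adaptor LNK) rose in K1-ER (q = 0.00669) and was not called in K1-NanER (q = 0.0729, authors' deposited table), with 86.5 FPKM in K1-ER, 65.0 FPKM in K1-NanER and 35.2 FPKM in parental K1. Jak2, the kinase of the receptor, rose in K1-NanER (log2 fold change 3.12, q = 0.00213) and not in K1-ER (q = 0.128, authors' deposited table), with 6.23 FPKM in K1-ER, 26.5 FPKM in K1-NanER and 3.05 FPKM in parental K1. Among cell cycle genes Ccne1, Ccnb1, Cdk4 and Cdkn2c had members. Cdkn2c, which encodes the cyclin-dependent kinase inhibitor p18, rose in K1-NanER (q = 0.00213) and missed the threshold in K1-ER (q = 0.167, authors' deposited table), with 15.1 FPKM in K1-ER, 42.0 FPKM in K1-NanER and 6.03 FPKM in parental K1. Among maturation genes, Ddit4, an inhibitor of the mTOR pathway, stood at 63.9 FPKM in K1-ER, 25.3 FPKM in K1-NanER and 20.2 FPKM in parental K1 and rose in K1-ER alone.

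**Figure D5:**
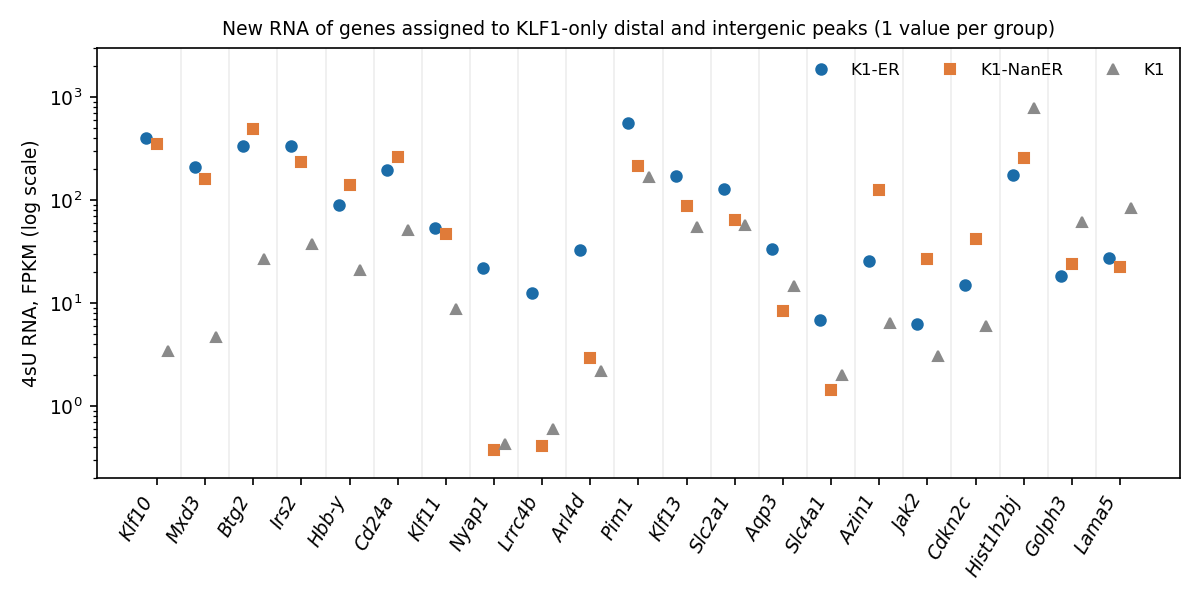
New RNA (y axis, FPKM, log scale) of the K1-ER, K1-NanER and K1 lines for 21 named genes with a KLF1-only distal or intergenic peak; each point is the authors' value for a group. Klf10, Mxd3, Btg2 and Irs2 are high in both fusion lines, while Nyap1, Lrrc4b, Arl4d, Klf13 and Slc4a1 are highest in K1-ER and Jak2, Cdkn2c and Azin1 in K1-NanER.

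Among the genes with the most members, Irf2bpl had 5, with fold enrichments from 35.7 to 88.1. It also had a KLF1 promoter peak of 103, 3 shared KLF1 peaks, the strongest of 348, and 6 Nan-KLF1 peaks. Irf2bpl stood at 54.7 FPKM in K1-ER, 16.6 FPKM in K1-NanER and 26.4 FPKM in parental K1. It rose in K1-ER alone (q = 0.0294 in the authors' deposited table). Klf9, with 3, stood at 92.9 FPKM in K1-ER, 85.2 FPKM in K1-NanER and 33.0 FPKM in parental K1 and rose in both. Syf2, which encodes a splicing factor, also had 3 and stood at 68.1 FPKM in K1-ER, 31.8 FPKM in K1-NanER and 31.1 FPKM in parental K1. Klf9 and Syf2 each had 1 shared KLF1 peak besides their members. Arhgap23, Atp2b4, Slc28a3 and Zfp217, with 4 each, and C730036E19Rik are not in the 4sU table.

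In fetal liver 50 genes with a member are in the authors' table of 793 changed genes. Of these 30 rose in Nan/+ livers (60%, 95% Wilson interval 46.2 to 72.4%), where 75.4% of the table rose, and 20 fell (40.0%, 27.6 to 53.8%), where 24.6% of the table fell. The genes of KLF1-only promoter peaks gave the same counts, 30 and 20 of 50, and of the 595 liver genes with no KLF1 peak 79.2% rose. Fewer cells of a type and less RNA per cell cannot be told apart in whole liver.

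The largest falls in Nan/+ livers among genes with a member were those of Aqp3, Rgcc, Acot11, Rragd, Xpo7 and B3gnt3. Aqp3 stood at 1.97 FPKM in Nan/+ livers, against 12.8 FPKM in wild-type livers (log2 fold change -2.70 in the authors' deposited table). Rgcc, a regulator of the cell cycle, stood at 21.1 FPKM in Nan/+ livers, against 131 FPKM in wild-type livers. Rragd, which encodes a Rag GTPase of amino acid sensing, stood at 0.690 FPKM in Nan/+ livers, against 3.45 FPKM in wild-type livers. Xpo7, which encodes a nuclear export receptor used in erythroid chromatin condensation, stood at 9.57 FPKM in Nan/+ livers, against 46.3 FPKM in wild-type livers. Acot11 stood at 1.04 FPKM in Nan/+ livers, against 5.85 FPKM in wild-type livers, and B3gnt3 at 0.700 FPKM, against 3.27 FPKM. Pklr, outside these 6 and named because it is the known target above, stood at 80.95 FPKM in Nan/+ livers, against 227 FPKM in wild-type livers. Aqp3 and Pklr are among 11 genes with a member that rose in K1-ER, were not called in K1-NanER and are in the liver table. Of these 11, 6 rose in Nan/+ livers (Crip1, Id1, Bahd1, Ap5s1, Avpi1 and Psmg3) and 5 fell (Aqp3, Pklr, Tnfrsf14, Agfg2 and Lpcat1).

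The largest rises were those of C1qtnf4 (10.2 FPKM in Nan/+ and 0.870 FPKM in wild-type livers), 2600006L11Rik (41.1 and 4.26 FPKM), Cox6b2 (342 and 45.6 FPKM), 5033406O09Rik (20.8 and 2.78 FPKM), Fcnb (21.5 and 4.83 FPKM) and Ifitm6 (9.12 and 2.53 FPKM). Fcnb is a gene of myeloid cells. Genes of 3 marker lists, chosen after the liver values were seen, moved with the genotype in the same table. That table holds only changed genes, of which 75.4% rose and 24.6% fell. Of 20 neutrophil granule genes 14 are in it and all rose, with a summed level of 2915 FPKM in Nan/+ and 497 FPKM in wild-type livers. Of 20 interferon response genes 12 are in it and all rose, with sums of 402 and 87.1 FPKM in the same order. Of 30 muscle genes 10 are in it and all fell, with sums of 4.38 and 56.7 FPKM. Tnnt2 and Casq2, which have members, are among these. Xist, which is transcribed from the inactive X chromosome of females, stood at 0.0400 FPKM in Nan/+ and 25.1 FPKM in wild-type livers. The part of these differences in the liver changes of genes with members was not tested.

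MicroRNA genes were assigned to 22 members, in 18 genes. Mir144, part of an erythroid microRNA cluster that is under the control of GATA1, had 2, at chr11:77879045-77879768 and chr11:77882779-77883864, with fold enrichments of 46.4 and 76.95 and the motifs CCATGCCC and CCCCACCC. Mir23a and Mir181c together had a cluster of 3 on chromosome 8, with fold enrichments of 57.1, 69.1 and 43.4, of which the second had a Nan-KLF1 peak at 364 bp. The strongest microRNA member lay at Mir5106. The mature sequences of these genes in RefSeq (build GRCm38.p6, so that no distance to the mm9 peaks is given) are shown since the 4sU table has no value for them; capitals mark the seed, bases 2 to 8, and no seed is shared between the arms shown.
mmu-miR-144-3p: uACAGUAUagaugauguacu
mmu-miR-144-5p: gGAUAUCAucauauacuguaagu
mmu-miR-23a-3p: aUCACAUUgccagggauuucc
mmu-miR-181c-5p: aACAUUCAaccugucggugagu
mmu-miR-5106: aGGUCUGUagcucaguuggcaga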

How the data were processed

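The authors deposited 1 annotated peak list per factor and 2 expression tables, and these were the start of all results. Per the submitters' processing notes the tools were MACS 1.4.2 and TopHat2 2.0.10 on build mm9; what gave each peak its gene and motif is not given in the sources used here. Fold enrichment is the deposited ratio of ChIP over input for each peak, and none is under 30.0. The rank is the deposited score of a peak within its own list. Expression is in FPKM as deposited, 1 value per group, with the authors' log2 fold change and their p-value and q-value; 0.1 is the floor in K1. Depth per sample is unknown. A gene was called at a q of at most 0.05.

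Peaks were compared by position with an overlap of at least 1 bp, and coordinates are printed as the lists give them. Shares carry 95% Wilson intervals. No test was run, since no per-sample values were used and each factor has 1 library. Where nothing in the labels separates cultures, as for the K1 libraries and the livers, the authors' q may measure technical spread only. The interval code was tested on simulated data. Genes were matched by the symbol of the lists; 5 members have a gene name that is a number and were matched to none. Of 18 microRNA genes 15 matched RefSeq. The members and gene lists were chosen with earlier results of these data known, and the marker lists for liver after its values were seen. Named were the 10 strongest and 5 highest ranked peaks, the 5 largest clusters, the 5 peaks on each side of the rule (1 of them is not reported here), the largest called changes with at least 1 FPKM, the genes with most members, list genes and the 8 most frequent motifs. Alternatives changed the overlap rule, the locations, the peak strength, the q, the floor, the pseudocount (log2 of FPKM plus 1), the gene assignment and the cluster distance. Python 3.11.15 with pandas 2.3.3 and SciPy 1.17.1 was used.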

Additional observations from a re-analysis of the deposited data

How the results depend on the processing

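Of 34 alternatives to 8 results, 23 left the value within its 95% interval, or a count within 1.5 times. Keeping peaks at or above the median fold enrichment of the KLF1 list left 495 peaks, of which 82.8% had a motif. Of their 80 genes in the 4sU table, 68.8% rose in K1-ER. Over all members the assigned gene rose in 12.3% (K1-ER) and 9.83% (K1-NanER) of peaks, and over all KLF1 peaks in 14.0% and 11.1%. Intergenic peaks alone had a motif in 68.3%, and their assigned gene rose in 6.35% (K1-ER) and 5.29% (K1-NanER) of peaks. Of these intergenic peaks, 52.4% have no gene. Of the 174 assigned genes in the 4sU table, 40.2% rose in K1-ER at a q of at most 0.01 (24.4% of the whole table). At a q of at most 0.05, 41.1% of the 73 with no other KLF1 peak rose. When any such peak within 50 kb of the locus counted, 52.0% of 352 genes of that table rose. Clusters numbered 25 at 25 kb and 7 at 5 kb. Except where the construction shows it (fewer peaks, a stricter q, a wider distance), the cause was not tested. No paired analysis was possible because the tables hold 1 value per group. Without depth, an absent peak may be a peak under the authors' threshold.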
